A study of Drosophila melanogaster with 4 samples.

Results

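The window of 2L given as the locus of the spalt genes salm and salr holds a stretch of over 200 kb without H3K27me2 calls, between flanks covered about as much as the rest of the arm. The positions of the genes within that window were not analysed here. The members are 2 genes, salm (spalt major, Dmel_CG6464) and salr (spalt-related, Dmel_CG4881), of 17872 in the RefSeq gene table. They were studied through the window from 11050000 to 11750000 on 2L, FlyBase release 5, which covers the spalt locus and was chosen by its uncovered block. The window held 40 of 10114 enriched regions in replicate 1, 41 of 10115 in replicate 2 and 77 of 16728 in the list made for the series. The members were thus selected on the absence of calls in these same lists, so the length, edges and cover of the block, and the comparisons around it, are a description with no test.

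Chromatin immunoprecipitation with sequencing was run on head nuclei of wild-type Oregon-R Drosophila melanogaster, with the antibody Ab24684 against histone H3 dimethylated at lysine 27. The flies came from population cages and are labelled mixed adults, so sex and exact age are not given. There were 2 ChIP replicates, each with an input of the same replicate number, and no treated or mutant group. Separate fly collections are not stated for the replicates, whose spread may therefore be technical, and a head holds many cell types whose chromatin is averaged. The lists name no genes, so the label could be checked against position only as the window states it.

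Spalt proteins are zinc finger transcription factors. In the fly they pattern the wing veins downstream of the Dpp signal, help to form the tracheal branches, and act in the inner photoreceptors of the eye, where they are needed for the correct rhodopsins. The neighbouring genes salm and salr are expressed in overlapping patterns, share enhancer sequence and can partly replace each other. Polycomb repressive complex 2, with its enzyme E(z), places 1, 2 or 3 methyl groups on lysine 27 of histone H3. The dimethyl form is widespread in inactive chromatin between genes, and the trimethyl form marks the domains where Polycomb proteins gather at developmental regulators.

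In the RefSeq table of the Release 6 assembly, salr and salm are next to each other apart from 1 noncoding gene, lncRNA:CR43681. Beyond salr the table lists lncRNA:CR44586 and the protein-coding gene CG14926, and beyond salm it lists lncRNA:CR46454, sala (spalt-adjacent), CG43355 and Cog8, which codes for a subunit of the Golgi tethering complex COG. This order comes from a later assembly than the lists, so none of its positions was carried over. Which of these neighbours lie within the block was not analysed here, and cover was not counted gene by gene, for the spalt genes or for other genes of the Dpp pathway.

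No base of the block was called enriched in any of the 3 lists. In the series' list the block ran from 11284028 to 11499312, a length of 215.3 kb. Replicate 1 left 240.2 kb uncovered, from 11265399 to 11505550. Replicate 2 left 262.7 kb uncovered, from 11254911 to 11517560. The replicate mean was 251.4 kb ± 15.9 (SD, n = 2), and both replicate blocks contained the whole of the series' block. The block was thus widest in replicate 2 and narrowest in the series' list, on both sides.

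The block ranked high among gaps on 2L in every list. It was the longest of 2852 gaps in the series' list, the third longest of 1615 in replicate 1 (rank 3) and the second longest of 1665 in replicate 2 (rank 2). The median gap on the arm was 4488 bp in replicate 1, 3847 bp in replicate 2 and 1350 bp in the series' list. The block was 53.5, 68.3 and 159.5 times as long, respectively.

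**Figure D1:**
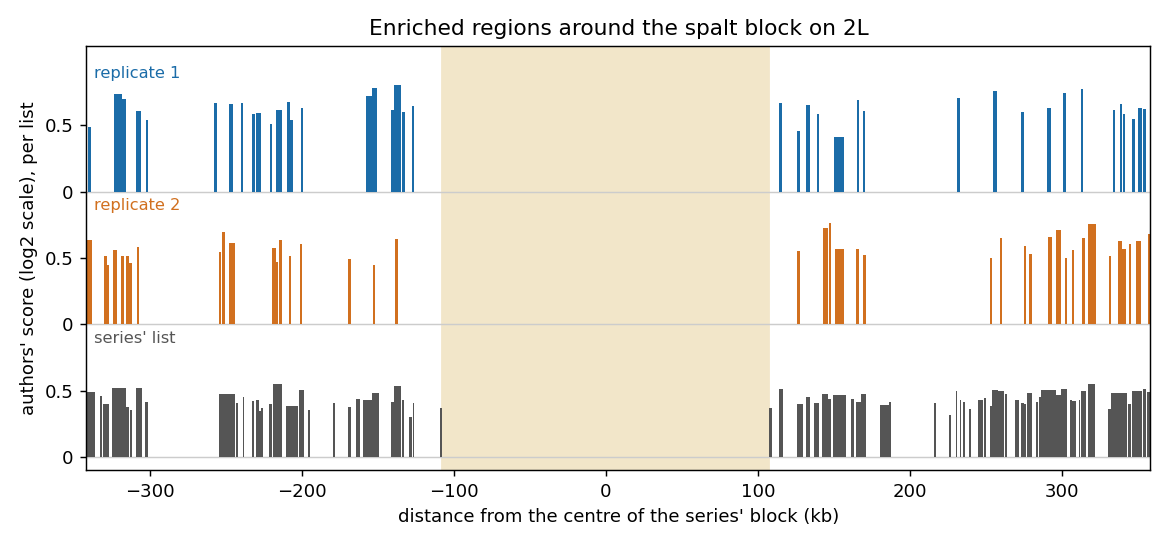
Enriched regions in the window, by distance from the centre of the series' block in kb (horizontal) and by the authors' score on the log2 scale (height of each bar, one row per list). The shaded block of 215.3 kb holds no region in any row, and regions stand on both sides of it in all 3 rows.

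The edges of the block differed between the lists by several times the median length of a region, which was 1972 bp in replicate 1 and 1943 bp in replicate 2. The left edges of the replicates lay 10488 bp apart and the right edges 12010 bp apart. Compared with the series' list, replicate 1 extended the block by 18629 bp on the left and 6238 bp on the right, and replicate 2 by 29117 bp and 18248 bp.

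In replicate 1 the left edge was a region of 1502 bp from 11263897 to 11265398, with a score of 0.64. The authors' score is, from its values, log2 of a ratio of whole numbers, read here as ChIP over input reads, minus 1 constant per list. For this region the ratio was 217 to 106, with a counting error of at most 0.17 on the log2 scale. The right edge of replicate 1 was a region of 2269 bp from 11505551 to 11507819 that scored 0.67, from a ratio of 79 to 38 and with a counting error of at most 0.28. Their scores were at percentiles 52.2 and 59.6 of the 2L regions in that list, near its middle.

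In replicate 2 the left edge was a region of 2121 bp from 11252790 to 11254910, with a score of 0.64 and a ratio of 278 to 179. Replicate 1 covered this region completely and went on further toward the block. The right edge was a region of 1733 bp from 11517561 to 11519293, which scored 0.55 from a ratio of 302 to 207. Replicate 1 covered 93.1% of it, and had 1 more region, the edge region at 11505551, between it and the block. Both edge regions of replicate 2 were therefore called in replicate 1 too, whereas replicate 2 covered 0% of either edge region of replicate 1.

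The edges of the series' list rested on regions that neither replicate called. The left one, 1371 bp from 11282657 to 11284027, scored 0.37 from a ratio of 385 to 263, and the right one, 1833 bp from 11499313 to 11501145, scored 0.37 from 231 to 157. Replicates 1 and 2 each covered 0% of both. These scores were at percentiles 15.2 and 18.3 of the 2L regions in the series' list. The second region on the right, 11505574 to 11507999, scored 0.51 and was covered to 92.6% by replicate 1 and 0% by replicate 2. The second on the left, 11264669 to 11265687, scored 0.40 and was covered to 71.6% by replicate 1 and 0% by replicate 2.

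Cover was also counted in steps of 10 kb. Enriched regions touched 32 of the 70 bins of the window in replicate 1, 29 in replicate 2 and 43 in the series' list, against 54.2%, 53.2% and 77.1% of all 2301 bins on 2L. All 20 bins that lie wholly in the block were untouched in every list. The longest untouched run was 23 bins in replicate 1, 25 in replicate 2 and 20 in the series' list. Of the other 50 bins of the window, 32 (64.0%), 29 (58.0%) and 43 (86.0%) were touched. Since the block was used to choose the window, the lower count over the whole window says nothing further about the locus.

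Outside the series' block the window was covered slightly more than the rest of 2L, in the replicates by less than their spread. The flanks are the 234.0 kb of the window to the left of the series' block and the 250.7 kb to its right. They are the same for every list, so they include part of each replicate's own uncovered block. In replicate 1 this was 18629 bp on the left and 6238 bp on the right. In replicate 2 it was 29117 bp and 18248 bp. Cover of the flanks without those bases was not analysed. The covered share of their bases was 19.2% in replicate 1 and 18.2% in replicate 2, with a mean of 18.7% ± 0.748 (SD, n = 2). For the rest of 2L it was 17.9% in replicate 1 and 18.0% in replicate 2, with a mean of 17.9% ± 0.113 (n = 2). The difference between flanks and rest came to 1.36 percentage points in replicate 1 and 0.143 in the other, with a mean of 0.752 ± 0.861 (n = 2), which is smaller than its own spread. With flanks of 100 kb on each side the mean difference turned to -2.38 points, with 500 kb to -0.411, and with only regions above the median score to -2.76. Flanks of 100 and 500 kb also start at the series' block and include the same uncovered bases. In the series' list the flanks were covered to 47.0% and the rest of 2L to 41.2%.

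The sides did not rank the same way in the replicates. Replicate 1 covered 22.1% of the left flank and replicate 2 covered 16.5% (mean 19.3% ± 3.98, n = 2). Of the right flank, replicate 1 covered 16.5% and replicate 2 covered 19.7% (mean 18.1% ± 2.27, n = 2). Replicate 1 was thus fuller on the left and replicate 2 on the right. The series' list followed replicate 2 in this order, with 40.9% on the left and 52.7% on the right.

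Among stretches of the same length on 2L, taken every 10 kb outside the window, the flanks were ordinary. Of 2184 stretches as long as the left flank, 70.6% were covered no more than it in replicate 1, 49.9% in replicate 2 and 48.5% in the series' list. For the right flank, 47.0%, 64.4% and 77.3% of 2181 stretches were covered no more than it. For the block itself, 8 of 2188 stretches in replicate 1, 22 in replicate 2 and 0 in the series' list were as empty. The locus was chosen for this emptiness, and the 0 restates the block's first rank among gaps in the series' list. Stretches overlap and share regions, so these shares are a description.

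The window as a whole, block included, lay in the lower part of the arm. Since the block was used to choose the window, this low cover and its rank say nothing further about the locus. Replicate 1 covered 13.3% of it and replicate 2 covered 12.6%, which gives a mean of 12.9% ± 0.518 (n = 2), and to 32.5% in the series' list. Of 2091 stretches of 700 kb, 23.7% in replicate 1, 21.9% in replicate 2 and 21.4% in the series' list were covered as little or less. The lowest such stretch reached 3.27% in replicate 1 and 6.51% in replicate 2.

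**Figure D2:**
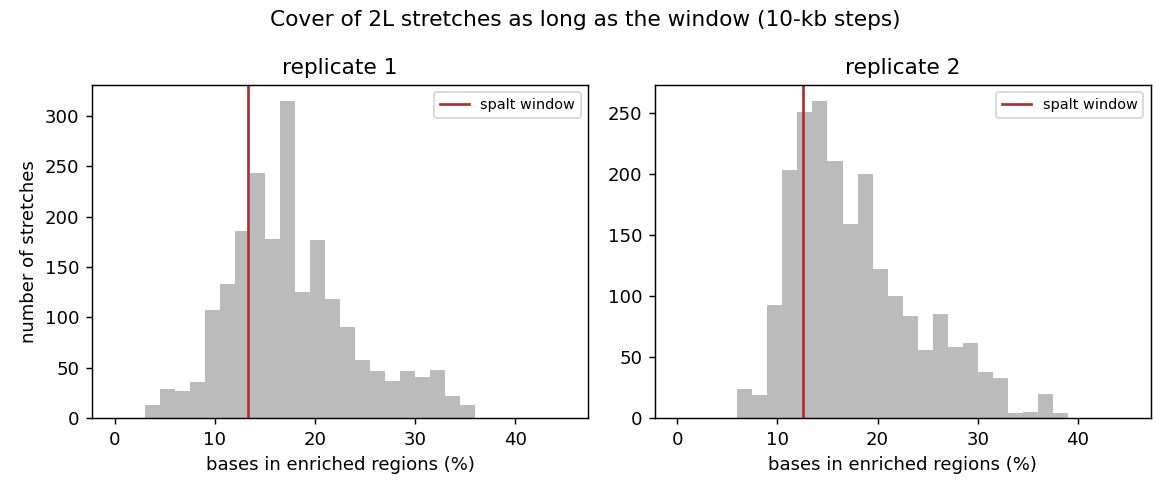
Share of bases in enriched regions (horizontal, %) for stretches of 2L as long as the window, taken in 10-kb steps, as number of stretches (vertical), for each replicate. The red line marks the spalt window at 13.3% and 12.6%, left of the medians of 17.0% and 16.4% and inside the main body of stretches. The window includes the uncovered block by which it was chosen.

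Cover rose and fell in patches along the flanks and did not climb steadily away from the block. In the first 50 kb to the right, replicate 1 covered 30.5% and replicate 2 covered 24.2% (mean 27.3% ± 4.44, n = 2), above the rest of 2L. From 50 to 100 kb to the right, the mean was 6.51% ± 1.58, and from 100 to 150 kb it was 6.74% ± 4.96 (n = 2). From 200 to 250 kb it was 29.9% ± 8.39 (n = 2). The sequence next to the right edge was thus among the fuller parts of that flank.

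On the left the replicates parted next to the block. In the first 50 kb replicate 1 covered 34.0% and replicate 2 covered 7.48%, a mean of 20.8% ± 18.8 (n = 2). These 50 kb start at the edge in the series' list, so 18629 bp of them lay in replicate 1's own block and 29117 bp in replicate 2's. The bin thus repeats in part the difference in left edges given above. Farther out both were low or high in the same bins, with a mean of 7.62% ± 1.42 from 50 to 100 kb, 30.9% ± 4.22 from 100 to 150 kb and 4.66% ± 4.15 from 150 to 200 kb (n = 2). The fullest bin on this side was at 200 to 250 kb, with 39.7% in replicate 1, 55.6% in replicate 2 and 81.2% in the series' list.

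**Figure D3:**
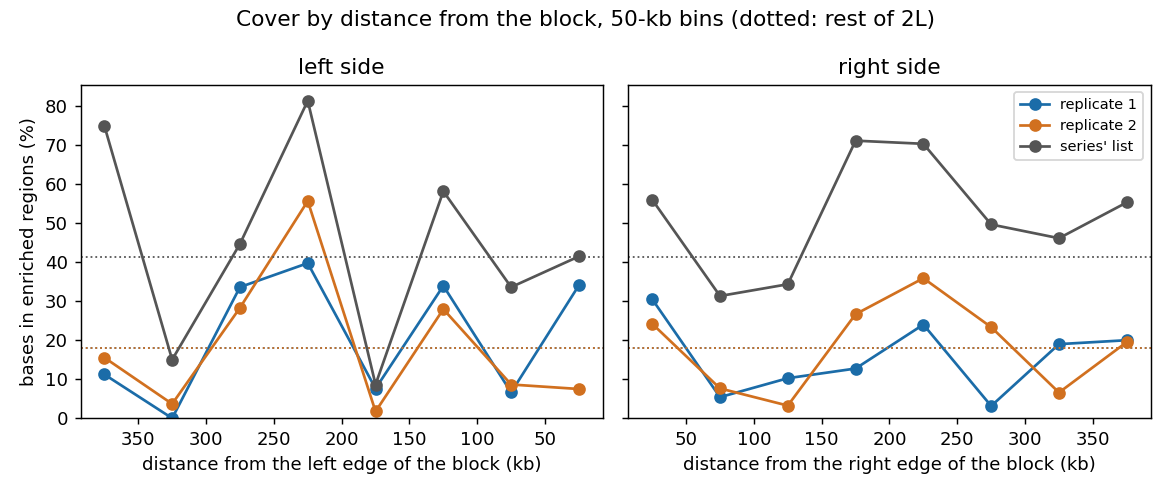
Share of bases in enriched regions (vertical, %) in 50-kb bins by distance from the left and right edges of the series' block in kb (horizontal), one line per list. Dotted lines give the rest of 2L, 17.9%, 18.0% and 41.2%. The replicates cross several times and differ most in the first 50 kb on the left, 34.0% against 7.48%.

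Shorter gaps recurred within the flanks. The longest one on the left spanned 46.3 kb in the series' list, from 11090849 to 11137144, 43.4 kb in replicate 1 and 52.5 kb in replicate 2. Its counterparts ranked 36, 93 and 69 among the gaps of 2L, in that order. On the right, replicate 1 had a gap of 60.4 kb from 11562368 to 11622765 and replicate 2 one of 81.7 kb from 11562655 to 11644378. The series' list filled part of these, leaving 28.6 kb from 11579058 to 11607672, which neither replicate covered at all. The flanks therefore held empty stretches in all 3 lists, each far shorter than the block.

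The regions of the flanks were of the same size as elsewhere on 2L. Their median length was 1897 bp in replicate 1 and 1852 bp in replicate 2, against 1920 and 1918 bp in the rest of 2L. In the series' list it was 2248 bp against 2082 bp. Per 100 kb there were 8.25 regions in the flanks of replicate 1 and 8.46 in replicate 2, against 7.07 and 7.30 in the rest of the arm.

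Their scores were close to those of the arm at the middle. None lay at its high end, but few regions of 2L do, and so few flank regions would be expected there. In replicate 1 the flank regions scored from 0.41 to 0.80 with a median of 0.63, against a median of 0.64 in the rest of 2L. In replicate 2 they scored from 0.45 to 0.76 with a median of 0.57, against 0.60. In the series' list they ran from 0.30 to 0.55 with a median of 0.43, against 0.43. The difference in medians, flanks minus rest, was -0.010 in replicate 1, -0.033 in replicate 2 and -0.0019 in the series' list. The replicate mean of -0.022 ± 0.016 (SD, n = 2) was of about the size of its spread. The counting error of a single flank score had medians of up to 0.19, 0.15 and 0.13 (log2 scale).

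A minority of the flank regions scored above the median of their whole list, which was true of all of 2L as well. In replicate 1, 11 of 40 did, against 37.1% of the regions on 2L, and in replicate 2, 13 of 41 did, against 38.0%. In the series' list it was 26 of 77, against 31.0%. No flank region reached the 90th percentile of its list, 0 of 40, 0 of 41 and 0 of 77, where 3.65%, 2.46% and 2.52% of the 2L regions did. At these background shares only 1 or 2 regions per list would fall there, so the empty top is near the background.

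**Figure D4:**
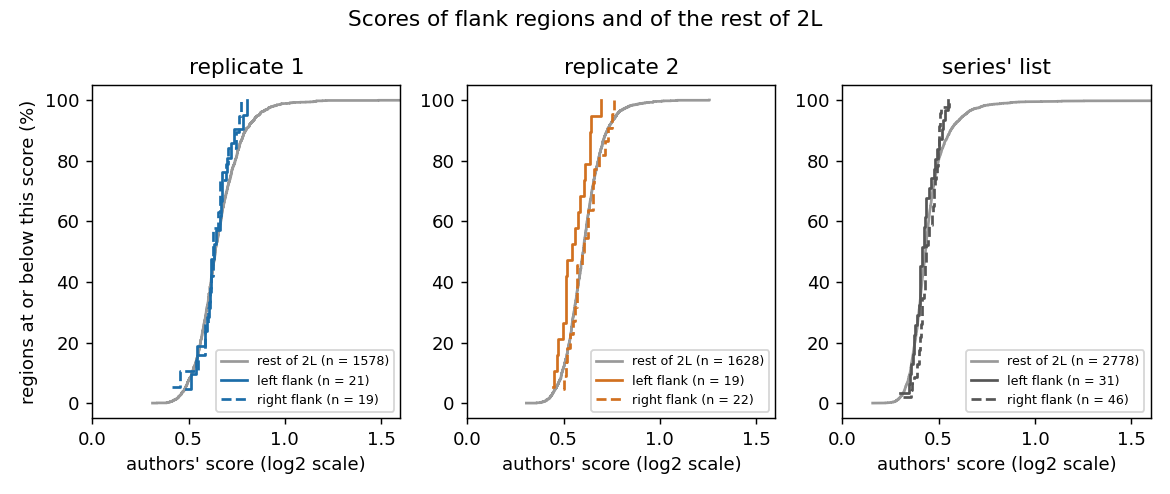
Share of regions at or below each score (vertical, %) against the authors' score on the log2 scale (horizontal), for the left flank, the right flank and the rest of 2L in each list. The flank curves lie along the grey curve of 2L through its middle and end at 0.80, 0.76 and 0.55, where the grey curve goes on. Both flanks together hold 40, 41 and 77 regions, against 1578, 1628 and 2778 in the rest of 2L. In replicate 2 the left flank lies to the left, with a median of 0.54.

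The strongest calls of the flanks lay at different distances from the block in each list. In replicate 1 the highest score, 0.80, belonged to the region from 11252673 to 11257291 on the left, 4619 bp long, with a ratio of 667 to 292 and a counting error of at most 0.10. This region is the third from the block in that list, and replicate 2 covered 45.9% of it. In replicate 2 the highest score, 0.76, belonged to the region from 11538663 to 11540108 on the right, which replicate 1 did not cover. The highest in the series' list, 0.55, was at 11708893 to 11713645, covered to 97.5% by replicate 2 and 0% by replicate 1.

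The longest region of replicate 1 in the window was shared. Replicate 1 called 6746 bp from 11541483 to 11548228 with a score of 0.41, its lowest in the flanks. Replicate 2 called 5978 bp from 11542250 to 11548227 with a score of 0.57. All 5978 bp lay inside the region of replicate 1. The right ends differed by 1 bp, so the replicates placed this region alike although they ranked its score differently. The longest region of replicate 2 was another, 6338 bp from 11047683 to 11054020 across the left limit of the window. Replicate 1 covered 50.6% of it.

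The replicates overlapped over part of the flank bases they covered. The Jaccard index, bases in both replicates over bases in either, was 0.249 in the flanks, with 0.249 on the left and 0.248 on the right, against 0.339 in the rest of 2L. Of stretches of equal length on 2L, 33.8% had an index as low as the left flank and 33.5% one as low as the right flank. At least 1 bp was shared by 21 of 40 flank regions of replicate 1 (52.5%) and 21 of 41 of replicate 2 (51.2%), against 62.1% and 60.4% in the rest of 2L. Among regions above the median score alone the index was 0.0731 on the left and 0.0133 on the right, against 0.265 in the rest of 2L. Those indices rest on few regions, 6 in replicate 1 and 4 in replicate 2 on the left, and 5 and 9 on the right.

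The flank regions of the series' list lay partly on calls of the replicates and partly on sequence that neither had called. Of its 77 flank regions, 20 (26.0%) overlapped calls in both replicates, 34 (44.2%) in 1 replicate and 23 (29.9%) in none. In the rest of 2L these shares were 26.0%, 33.3% and 40.7%. By bases, 39.8% of the flank cover of the series' list lay in neither replicate, against 37.0% in the rest of the arm.

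The block was then set beside the other long gaps of 2L, which the series' list gives as 6 of at least 100 kb. The other 5 spanned 127.0 to 201.3 kb, and none touched a region of either replicate. The next in length, from 5351352 to 5552686, lay inside a longer gap of 437.4 kb in replicate 2, which makes it longer than the spalt block in that list. The gap from 21752138 to 21921686 lay inside one of 263.8 kb in replicate 1. A further gap of replicate 1, 247324 bp long, was also longer than the spalt block in that list and is at none of these 6 places. First rank of the spalt block thus held in the series' list only.

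The sequence at the sides of the spalt block was fuller than at the other gaps in the series' list, a description of 6 gaps with no test. The 100 kb on each side of it were covered to 40.5%, and those of the other gaps to between 20.2% and 36.4%. The sides start at the edges in the series' list, so in a replicate they include sequence of its own gap where that is longer. The third gap was 169.5 kb in the series' list and 263.8 kb in replicate 1. The second was 201.3 kb and, in replicate 2, 437.4 kb. The spalt block was 215.3 kb, and 240.2 and 262.7 kb in the replicates. Side cover in a replicate thus depends in part on its gap length. In replicate 1 the sides of the spalt block were covered to 19.1%, against 5.73% to 12.7% for the others. In replicate 2 they were covered to 12.0%, against 8.76% to 21.3%, so 1 gap, from 21416093 to 21543111, had fuller sides there. The mean for the spalt block was 15.6% ± 5.05 and for that gap 16.3% ± 7.08 (n = 2), which differ by less than the spread between replicates. The median score at the sides of the spalt block was 0.63 in replicate 1, where the others ran from 0.59 to 0.66 and 1 of the 5 was higher. In replicate 2 it was 0.568, below all 5 others, which ran from 0.572 to 0.605. In the series' list it was 0.42, against 0.39 to 0.50, with 3 of the 5 higher.

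**Figure D5:**
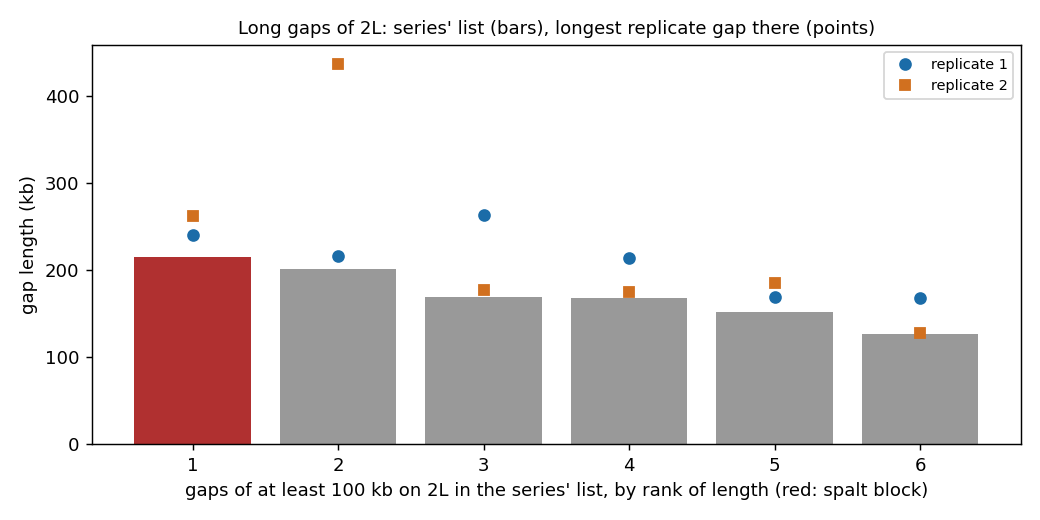
Length in kb (vertical) of the 6 gaps of at least 100 kb on 2L in the series' list, ordered by length (horizontal). Bars give the series' list, with the spalt block in red at 215.3 kb, and points give the longest gap of each replicate at the same place. The points of the spalt block, 240.2 and 262.7 kb, lie below the 263.8 kb of replicate 1 at the third gap and the 437.4 kb of replicate 2 at the second. A gap of 247324 bp in replicate 1, at none of these 6 places, is not shown.

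The regions at the limits of the window were as follows. In replicate 2 a region of 6338 bp with a score of 0.64 crossed the left limit, and the next region outside, from 11038252 to 11045030, scored 0.83. In replicate 1 the nearest regions inside and outside the left limit scored 0.49 and 0.57. At the right limit, the nearest region of replicate 1 inside scored 0.63 and the nearest outside scored 0.70. The inside region ended at 11746957 and the outside one started at 11779698, so in replicate 1 a stretch without calls began near that limit. Replicate 1 covered 24.0% at 200 to 250 kb from the block and 3.13% at 250 to 300 kb. The other lists did not share this stretch. A region of 2204 bp in replicate 2 and one of 3076 bp in the series' list crossed the right limit. At 250 to 300 kb these lists covered 23.3% and 49.6%.

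A block without calls is not a measured absence of the mark. The lists hold called regions only, they do not say where reads could be aligned, and they give no reads within the block, so low H3K27me2 and thin reads there cannot be told apart.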

How the data were processed

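The submitters' processing notes name Bowtie 0.12.7. The peak caller, its cutoff and how the series' list was made are not stated in the sources used here. Each line of the 3 deposited lists is, per the file headers, a region of significant enrichment on FlyBase r5, with start and end in bp. The score that the authors deposited with each region has no stated scale, and its values are log2 of a ratio of whole numbers minus 1 constant per list (0.39 and -0.0058 for replicates 1 and 2, 0.18 for the series), with denominators of up to 20000 and a relative tolerance of 1e-11. This held for 100% of the scores. The ratio was read as ChIP over input reads in lowest terms, which no label or header states, so each counting error is an upper limit, and it covers counting only. Library totals are not in the lists, so total depth is unknown.

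Cover was counted base by base, and a gap is sequence between neighbouring regions. The block is the longest gap in the window. Edges, flanks, equal stretches and scores were computed with Python 3.11.15, NumPy 2.4.6 and pandas 2.3.3, and the functions were tested on simulated lists. Regions named are those that bound the block and the longest and highest-scoring of each flank, and the shorter gaps of the flanks and the regions at the window's limits were added after their values were seen. Gene names and order come from RefSeq's Release 6 table, in which both genes matched. With 1 group and a locus chosen by its readout, no test was made. Members and lists were chosen with earlier results of these data known. Alternatives were the series' list, score and length limits, other flank widths, merging, a reciprocal overlap, and leaving out each replicate.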

Additional observations from a re-analysis of the deposited data

How the results depend on the processing

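No paired analysis was possible because no list of an input was analysed, and only inputs share a number with a ChIP replicate. The length of the block moved from a mean of 251.4 kb to 215.3 kb in the series' list and to 289.6 kb with regions above the median score alone, where fewer regions bound it. It was 240.2 to 262.7 kb with a replicate left out. Cover of the flanks moved from 18.7% to 47.0% in the series' list, 6.64% above the median score, 15.6% with 100 kb and 17.6% with 500 kb on each side, and was 18.2% to 19.2% with a replicate left out. Its difference from the rest of 2L was 0.752 percentage points, 0.143 to 1.36 with a replicate left out and 5.82 in the series' list. It turned to -2.76 above the median score, -2.38 with 100 kb and -0.411 with 500 kb on each side, and the cause was not tested. Flanks of every width start at the series' block and include uncovered sequence of the replicates' own blocks. In replicate 1 this was 18629 bp on the left and 6238 bp on the right, and in replicate 2 29117 bp and 18248 bp. It is a larger share of flanks of 100 kb than of wider ones. The median score of the flank regions was 0.60, 0.57 to 0.63 with a replicate left out and 0.43 in the series' list. Its difference from the rest of 2L was -0.022, -0.033 to -0.010 with a replicate left out and -0.0019 in the series' list. The Jaccard index of the flanks moved from 0.249 to 0.0414 above the median score, where few regions remain, and the share of flank regions in both replicates from 51.9% to 29.6% with a reciprocal overlap of 50%. The counting error of a single score is known only as an upper limit. For an edge region with a ratio of 79 to 38 in lowest terms it is up to 0.28 on the log2 scale. Whether depth limits the scores was not tested.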
